A study of Mus musculus with 24 samples.

Results

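Erythroid and megakaryocyte regulators were followed in mouse lymphoid progenitors (LPs) that lost *Cbfb*, *Ctcf* or *Med12*. The group comprises 8 genes of the 55487 listed, *Gata1*, *Gata2*, *Tal1*, *Zfpm1*, *Nfe2*, *Gfi1b*, *Klf1* and *Pf4*, each taken by its symbol, with 1 row in the values of each experiment. The cells are Cas9-LPs, fetal liver progenitor lines from *Ebf1*-deficient mice with a Cas9 knock-in at *Rosa26*, so every group lacked EBF1 and carried Cas9. They were grown with SCF, Flt3L and IL-7 on OP9 stromal cells, and Phase 1 cells were LPs placed on OP9-DLL4, which presents the Notch ligand DLL4. Retroviral sgRNAs with an hNGFR marker were introduced, and CD45+ hNGFR+ cells were sorted 5 days later, so each library is a pool of edited cells and not a clone. Experiment 1 compared LP and Phase 1 cells that carried sgControl (against luciferase) or sgCbfb. In experiment 2, sgControl and sgCbfb were set beside sgCTCF and sgMed12, all in LPs. Each of the 8 groups had 3 libraries, 24 in all.

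GATA1 and GATA2 are zinc finger proteins that bind GATA sequences, and FOG-1, the product of *Zfpm1*, is a cofactor that binds GATA factors, GATA3 of T cells among them. TAL1 binds DNA with an E protein and is joined to GATA factors by LMO2 and LDB1. NFE2 (p45) pairs with small Maf proteins and is needed for platelet release, GFI1B is a repressor that recruits LSD1 and CoREST, and KLF1 activates globin and other red cell genes. *Pf4* encodes a chemokine of platelet granules, and so is a product of the megakaryocyte program. CBFβ is the shared partner of the RUNX factors, CTCF organizes chromatin loops, and Med12 is a subunit of the Mediator complex.

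The cells are of lymphoid type, and these regulators differed widely in how far they were read. All 8 of the LP markers examined, such as *Flt3* and *Il7r*, were at a mean of 1 CPM (reads scaled to a common total per library) or more in every group. *Ebf1* mRNA was among them, at group means of 161 to 334 CPM, and a 3′ tag does not tell whether its deleted part is there. *Zfpm1* had 1700 reads, *Gfi1b* 916 and *Nfe2* 878 over the 24 libraries, and each was read in every library. *Tal1* had 139 reads in 21 libraries and *Gata1* had 56 in 19. *Gata2* had 18 reads in 5 libraries, *Klf1* had 12 in 9 and *Pf4* had none. No member shares exon bases with another annotated gene. Of the 8 members, *Zfpm1*, *Nfe2*, *Gfi1b*, *Tal1* and *Gata1* passed the filter on low values in both experiments (at least 1 CPM in at least 3 libraries), and the other 3 did not.

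Libraries of experiment 1 held 1363266 to 1743322 reads on genes, and those of experiment 2 held 3354502 to 4326817. A count of 0 therefore allows up to 1.72 to 2.20 CPM in a library of experiment 1 and 0.693 to 0.894 CPM in one of experiment 2 (3 reads, counting error only). *Cbfb* mRNA fell in LPs with sgCbfb, from 86.5 ± 9.30 to 40.2 ± 5.18 CPM in experiment 1 and from 114 ± 8.37 to 48.4 ± 6.93 CPM in experiment 2 (SD, n = 3). In Phase 1 it was 66.5 ± 19.2 CPM with sgControl and 53.9 ± 9.69 with sgCbfb (adjusted P = 0.59). *Ctcf* was at 391 ± 30.7 CPM with sgControl and 306 ± 29.96 with sgCTCF (adjusted P = 0.021, below the fold threshold), and *Med12* was at 5.13 ± 1.26 and 7.01 ± 3.38 CPM with sgControl and sgMed12 (adjusted P = 0.66). A small deletion made by Cas9 need not lower the mRNA, so these values do not measure the protein. By a chi-square test over genes, replicate pairs of a group had a median statistic per degree of freedom of 4.22 in experiment 1 and 4.70 in experiment 2. Phase 1 sgControl replicate 3 stood apart from its group at 10.0 and 12.6, and sgMed12 replicate 2 at 12.5 and 24.1, so results that rest on them are also given without them. In such bulk samples, a smaller share of cells that express a gene and less mRNA per cell cannot be told apart.

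*Zfpm1*, on chromosome 8 (122282141 to 122337251, forward strand, GRCm38), was read at 14.2 to 80.5 CPM. In LPs of experiment 1, the sgControl libraries had 15.3, 15.5 and 25.05 CPM and the sgCbfb libraries 31.0, 34.4 and 29.97. In Phase 1 cells, the sgControl libraries had 80.5, 53.5 and 57.2 CPM and the sgCbfb libraries 32.4, 34.6 and 19.4. No library overlapped in either pair, and the direction was opposite, with sgCbfb above sgControl in LP and below it in Phase 1. From the highest mean to the lowest, the order was Phase 1 sgControl (63.7 ± 14.6 CPM), LP sgCbfb (31.8 ± 2.32), Phase 1 sgCbfb (28.8 ± 8.18) and LP sgControl (18.6 ± 5.56). LP sgCbfb and Phase 1 sgCbfb overlapped, and so did Phase 1 sgCbfb and LP sgControl.

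*Zfpm1* in LPs of experiment 2 had 17.4, 14.2 and 20.2 CPM with sgControl and 43.2, 42.4 and 37.8 with sgCbfb. With sgCTCF it had 17.2, 15.0 and 19.0 CPM, and with sgMed12 18.6, 17.4 and 21.3. Every sgCbfb library was above every library of the other 3 groups, which overlapped each other.

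*Nfe2*, on chromosome 15 (103248212 to 103258403, reverse strand, GRCm38), was read at 3.22 to 48.4 CPM. In LPs of experiment 1, it had 7.67, 7.43 and 5.14 CPM with sgControl and 16.9, 36.1 and 22.1 with sgCbfb. In Phase 1, it had 38.8, 34.8 and 48.4 CPM with sgControl and 16.2, 23.2 and 19.4 with sgCbfb. The groups did not overlap in either pair, and sgCbfb was again the higher in LP and the lower in Phase 1. The order of the means was Phase 1 sgControl (40.7 ± 6.98 CPM), LP sgCbfb (25.1 ± 9.94), Phase 1 sgCbfb (19.6 ± 3.52) and LP sgControl (6.75 ± 1.40). LP sgCbfb overlapped both of its neighbours, through its library of 36.1 CPM on the upper side.

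*Nfe2* in LPs of experiment 2 had 7.65, 5.91 and 3.90 CPM with sgControl and 19.97, 26.5 and 15.6 with sgCbfb. With sgCTCF it had 3.22, 6.40 and 5.78 CPM, and with sgMed12 9.04, 9.30 and 11.4. The sgCbfb libraries were the highest, the sgMed12 libraries lay between them and sgControl with no overlap on either side, and sgCTCF overlapped sgControl.

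**Figure D1:**
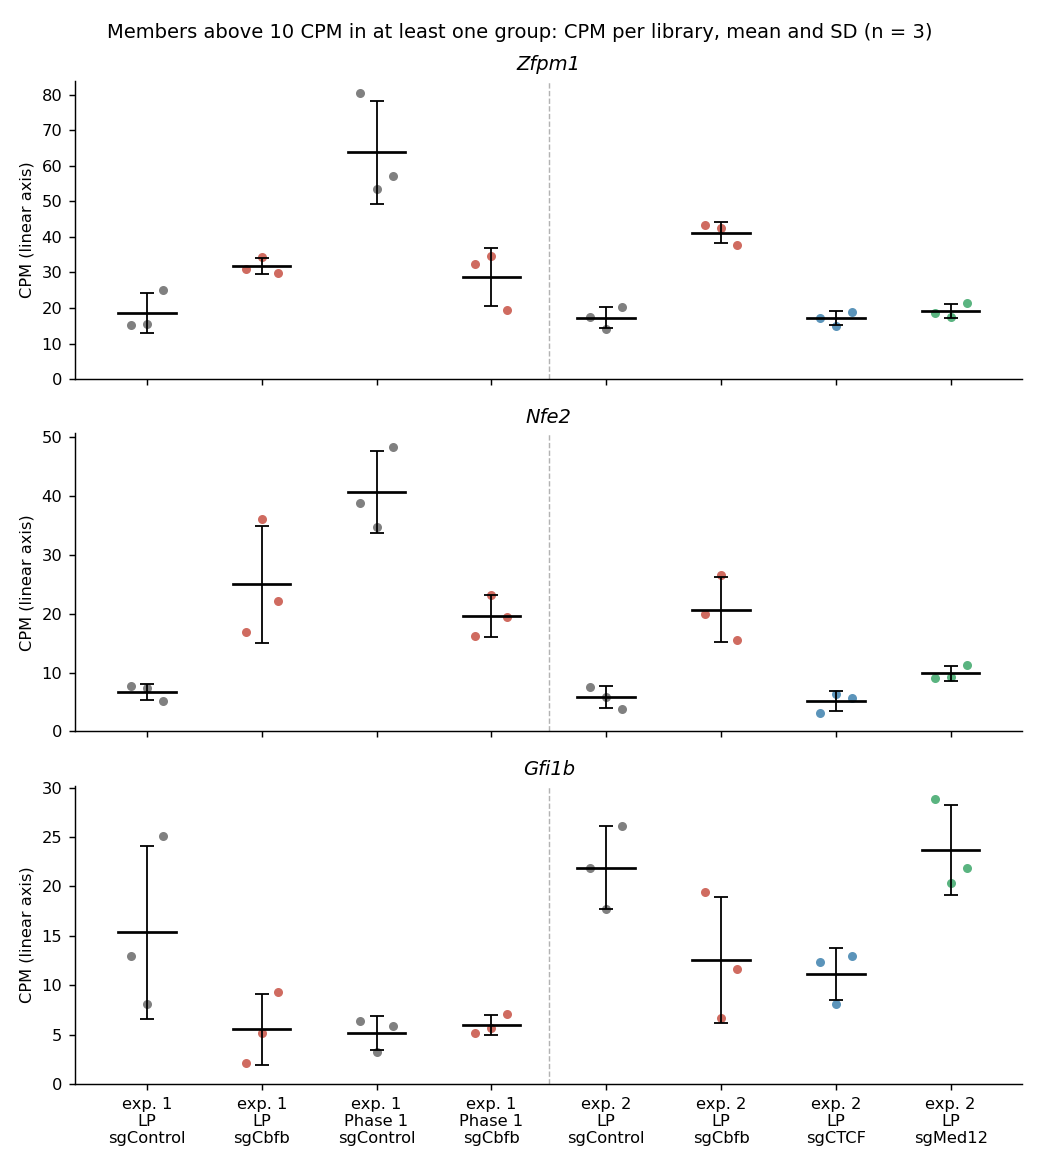
CPM per library (vertical axis, linear from 0) of *Zfpm1*, *Nfe2* and *Gfi1b* in the 8 groups (horizontal axis), with points for libraries, horizontal lines for means and bars for the SD of 3 libraries. *Zfpm1* and *Nfe2* are highest in Phase 1 sgControl cells (63.7 and 40.7 CPM on average) and higher in sgCbfb than in sgControl LPs of both experiments, and *Gfi1b* is highest in the sgControl and sgMed12 LPs of experiment 2.

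The loss of CBFβ in LPs was tested in both experiments with limma on log2(CPM + 1). A gene was called at a Benjamini-Hochberg adjusted P value under 0.05, a change of the group means over 1 on the log2 scale and, in at least 1 of the groups compared, an average above 10 CPM. In experiment 1, *Nfe2* rose 3.71-fold (log2 change 1.70 ± 0.33 SE, adjusted P = 0.0037). It was the 1 member of 5 tested that was called higher, with none lower, beside 1.10% of all 13239 tested genes called higher and 0.597% lower. *Zfpm1* was 1.71-fold higher, below the fold threshold, with a log2 change of 0.78 ± 0.28 (adjusted P = 0.19). In experiment 2, at a greater depth, *Zfpm1* rose 2.38-fold (1.22 ± 0.19, adjusted P = 2.9e-05) and *Nfe2* rose 3.56-fold (1.68 ± 0.29, adjusted P = 0.00016). Thus 2 members of 5 were called higher and none lower, beside 2.67% and 1.65% of all 13177 tested genes. The median log2 change of the 5 members was 0.78 in experiment 1 and 1.03 in experiment 2, beside 0.00 and -0.01 over all tested genes.

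In Phase 1, *Zfpm1* fell 2.21-fold with sgCbfb (log2 change -1.14 ± 0.28, adjusted P = 0.014). It was the 1 member of 5 called lower, and none was called higher, beside 1.56% of all tested genes called lower and 1.96% higher. Without 1 library this call was lost, with adjusted P = 0.11 without sgCbfb replicate 3 and 0.071 without sgControl replicate 1. *Nfe2* was 2.07-fold lower (-1.02 ± 0.33) and not called by limma (adjusted P = 0.081), while edgeR called it from the recovered reads with its quasi-likelihood test (adjusted P = 0.033). The study, at the same thresholds and by a test that its methods do not name, counts *Nfe2* as RUNX-dependent in Phase 1. Without sgControl replicate 3, the log2 change was -1.20 for *Zfpm1* (adjusted P = 0.0067) and -0.89 for *Nfe2* (adjusted P = 0.22).

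Notch stimulation was compared within each sgRNA. In sgControl cells, *Nfe2* rose 6.03-fold from LP to Phase 1 (log2 change 2.43 ± 0.33, adjusted P = 3.4e-05) and *Zfpm1* rose 3.42-fold (1.73 ± 0.28, adjusted P = 0.00025). These were 2 of the 5 members tested, with none called lower, beside 1.65% of all tested genes called higher and 1.74% lower. Without Phase 1 sgControl replicate 3, the log2 change was 2.30 for *Nfe2* (adjusted P = 2e-05) and 1.80 for *Zfpm1* (adjusted P = 1.9e-05). In sgCbfb cells, the changes were -0.28 ± 0.33 for *Nfe2* (adjusted P = 0.83) and -0.18 ± 0.28 for *Zfpm1* (adjusted P = 0.88). There limma called 0 of the 5 members, beside 0.740% of all tested genes called higher and 0.453% lower by limma. Of the members, 0 had an unadjusted P value under 0.05 and edgeR called 0.

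The difference between the sgCbfb effect in Phase 1 and that in LP was tested as an interaction over all 12 libraries of experiment 1. It was -1.91 ± 0.39 on the log2 scale for *Zfpm1* (adjusted P = 0.012) and -2.72 ± 0.47 for *Nfe2* (adjusted P = 0.003). These 2 of 5 members were called lower and none higher, beside 0.597% and 0.589% of all tested genes. The median over the 5 members was -0.93, and 0.06 over all tested genes. Without Phase 1 sgControl replicate 3, the difference was -1.98 for *Zfpm1* (adjusted P = 0.0017) and -2.59 for *Nfe2* (adjusted P = 0.0014). The 4 contrasts of experiment 1 share libraries, so their values stand side by side here and are not independent of each other.

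Markers of other cell types moved with some of these groups. The summed level of 18 monocyte and macrophage genes was 124.0 to 161.7 CPM in sgControl and 639.6 to 711.0 in sgCbfb LPs of experiment 1. It was 130.6 to 136.8 and 541.6 to 551.6 CPM in the Phase 1 groups with sgControl and sgCbfb. In experiment 2 it was 104.9 to 151.2 CPM with sgControl, 961.3 to 1136.4 with sgCbfb, 259.8 to 297.9 with sgCTCF and 94.1 to 153.4 with sgMed12. The list did not move as a whole. In sgCbfb LPs of experiment 1, *Mrc1* rose 45.5-fold, *F13a1* 16.9-fold and *Ly6c2* 5.67-fold. *Adgre1*, *Ccr2*, *Cd68*, *Itgam* and *Mpo* were not called there. In Phase 1, *Adgre1* was called higher with sgCbfb and *Ccr2* lower (5.74-fold and 2.42-fold). With sgCTCF, *Mrc1* had 2.78 to 3.76 CPM, below each sgControl library. Of the 18 genes, *Cd14*, *Cd163*, *Folr2*, *C1qa*, *C1qb* and *C1qc* had no read in any group. *Csf1r*, the receptor for the macrophage growth factor M-CSF, had no read in the sgControl LPs of either experiment and at most 4.57 CPM on average in the other groups. The part of these markers in the results was not tested. Of the 10 mast cell and basophil genes, *Mcpt4*, *Mcpt8*, *Cma1*, *Tpsb2*, *Tpsab1*, *Ms4a2*, *Fcer1a* and *Prss34* had no read in any group. *Cpa3*, a mast cell protease, was at 66.5 ± 16.3 CPM in Phase 1 sgControl cells and at 2.87 ± 1.37 CPM in Phase 1 sgCbfb cells, and the summed mast cell list stayed at 5.0 CPM or less outside the first of these groups. Its part in the Phase 1 values was not tested either. The 11 stromal genes summed to 2.1 to 56.8 CPM over all libraries, and *Dcn* and *Col3a1* had no read. The 5 genes of committed B cells summed to 0.6 to 27.0 CPM. The 8 T progenitor genes, *Gata3* among them, summed to 44.3 to 60.2 CPM in sgControl LPs and 846.5 to 1018.5 in sgControl Phase 1 cells. They summed to 71.1 to 82.8 CPM in sgCbfb LPs and 448.5 to 464.2 in sgCbfb Phase 1 cells. The part of the T progenitor genes in the Phase 1 values was not tested. *Gata3*, whose product FOG-1 can bind, was at 33.2 ± 4.96 CPM in sgControl and 36.9 ± 1.68 in sgCbfb LPs, and at 141 ± 10.8 and 43.2 ± 3.21 CPM in the Phase 1 groups.

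The CBFβ, CTCF and Med12 losses were also set against each other in experiment 2. With sgCTCF, *Zfpm1* was within 1.01-fold of sgControl (log2 change -0.01 ± 0.19, adjusted P = 0.98) and *Nfe2* within 1.13-fold (-0.15 ± 0.29, adjusted P = 0.82). Of 5 members, limma called 0, beside 1.81% of all tested genes called higher and 0.622% lower by limma. edgeR also called 0, and 1 member (*Gfi1b*) had an unadjusted P value under 0.05. With sgMed12, *Zfpm1* was 1.11-fold higher than sgControl (0.15 ± 0.19, adjusted P = 0.68) and *Nfe2* 1.70-fold higher (0.71 ± 0.29, adjusted P = 0.14). Limma again called 0 of 5, beside 0.668% of all tested genes called higher and 0.364% lower by limma. edgeR also called 0, and 2 members (*Nfe2* and *Gata1*) had an unadjusted P value under 0.05. Without sgMed12 replicate 2, the log2 change was 0.21 for *Zfpm1* (adjusted P = 0.51) and 0.75 for *Nfe2* (adjusted P = 0.098). These P values do not show that the genes were unaffected.

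Tested directly, *Zfpm1* was 2.41-fold lower with sgCTCF than with sgCbfb (log2 change -1.23 ± 0.19, adjusted P = 1.7e-05) and *Nfe2* was 4.03-fold lower (-1.83 ± 0.29, adjusted P = 3.2e-05). These 2 of 5 members were called lower and none higher, beside 3.38% of all tested genes called lower and 3.48% higher. With sgMed12, *Zfpm1* was 2.15-fold lower than with sgCbfb (-1.07 ± 0.19, adjusted P = 0.00016) and *Nfe2* 2.09-fold lower (-0.97 ± 0.29, adjusted P = 0.022). Again 2 of 5 were called lower and none higher, beside 2.72% and 1.76%. The *Nfe2* call was lost without a filter on low values (adjusted P = 0.061). It was also lost without sgCbfb replicate 1 (adjusted P = 0.057), sgCbfb replicate 2 (0.13) or sgMed12 replicate 1 (0.063). Without sgMed12 replicate 2, the log2 change was -1.01 for *Zfpm1* (adjusted P = 0.00028) and -0.93 for *Nfe2* (adjusted P = 0.031).

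**Figure D2:**
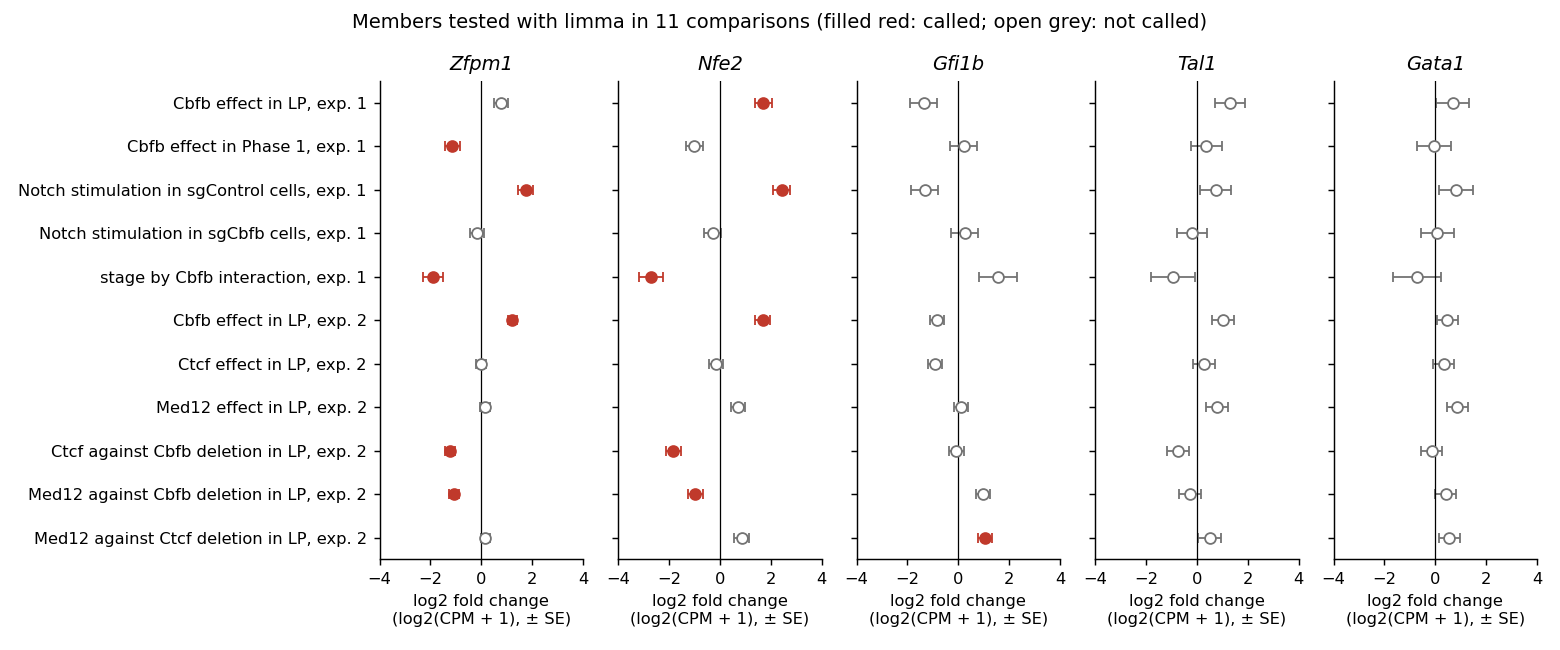
Log2 fold changes from limma on log2(CPM + 1) with their SE (horizontal axis) of the 5 tested members in the 11 comparisons (vertical axis), filled red where called. *Zfpm1* and *Nfe2* are each called in 6 of the 11 comparisons, *Gfi1b* in 1 and *Tal1* and *Gata1* in 0.

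*Gfi1b*, on chromosome 2 (28609450 to 28621982, reverse strand, GRCm38), had another pattern. In LPs of experiment 1, its sgControl libraries had 12.98, 8.05 and 25.05 CPM and its sgCbfb libraries 2.12, 5.16 and 9.28. Phase 1 cells had 6.35, 3.23 and 5.87 CPM with sgControl and 5.19, 5.66 and 7.07 with sgCbfb. The sgControl LPs spread widely, their lowest library lay below the highest sgCbfb library, and the Phase 1 groups overlapped. The log2 changes were -1.35 ± 0.53 for sgCbfb in LP (adjusted P = 0.25), 0.21 ± 0.53 in Phase 1 (adjusted P = 0.89) and 1.57 ± 0.75 for the interaction (adjusted P = 0.48), none of them called. From LP to Phase 1 they were -1.32 ± 0.53 with sgControl (adjusted P = 0.16) and 0.25 ± 0.53 with sgCbfb (adjusted P = 0.92).

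In experiment 2, *Gfi1b* had 21.9, 17.7 and 26.1 CPM with sgControl and 28.8, 20.3 and 21.9 with sgMed12. It had 19.4, 6.70 and 11.6 CPM with sgCbfb and 12.3, 8.08 and 12.9 with sgCTCF. The means were ordered sgMed12 (23.7 ± 4.52 CPM), sgControl (21.9 ± 4.17), sgCbfb (12.6 ± 6.39) and sgCTCF (11.1 ± 2.65), and each overlapped its neighbour in that order. All sgCTCF libraries were below all sgControl and all sgMed12 libraries. With sgCTCF, *Gfi1b* was 1.97-fold lower than with sgControl (log2 change -0.93 ± 0.28, adjusted P = 0.031), and with sgCbfb it was 1.74-fold lower (-0.85 ± 0.28, adjusted P = 0.044), both below the fold threshold and so not called. Without sgCbfb replicate 1, the library of 19.4 CPM, the sgCbfb change was -1.20 (adjusted P = 0.0043) and was called. The sgCTCF change was called without sgCTCF replicate 3 (-1.04, adjusted P = 0.042) or sgControl replicate 2 (-1.06, adjusted P = 0.033).

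Between sgMed12 and sgCTCF, *Gfi1b* was 2.13-fold higher with sgMed12 (log2 change 1.04 ± 0.28, adjusted P = 0.0098). It was the 1 member of 5 called higher, with none lower, beside 1.71% of all tested genes called higher and 2.31% lower. The call was lost without sgCTCF replicate 2 (adjusted P = 0.068) and without sgMed12 replicate 1, where the ratio was below the fold threshold (adjusted P = 0.047). Without sgMed12 replicate 2, the log2 change was 1.13 (adjusted P = 0.0038). *Nfe2* was 1.93-fold higher with sgMed12 than with sgCTCF (0.86 ± 0.29, adjusted P = 0.038) and *Zfpm1* 1.12-fold higher (0.16 ± 0.19, adjusted P = 0.59), neither of them called. Against sgCbfb, *Gfi1b* was 1.89-fold higher with sgMed12 (0.96 ± 0.28, adjusted P = 0.017), also below the fold threshold. It was called without sgCbfb replicate 1 (1.31, adjusted P = 0.0018) or sgMed12 replicate 2 (1.06, adjusted P = 0.0074).

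The core DNA-binding members were read at a few CPM or less. *Tal1*, on chromosome 4 (115056426 to 115071755, forward strand), had 0, 0 and 6 reads with sgControl and 7, 5 and 3 with sgCbfb in LPs of experiment 1. In Phase 1 it had 3, 3 and 2 reads with sgControl and 5, 3 and 5 with sgCbfb. In experiment 2 it had 7, 0 and 8 reads with sgControl, 19, 14 and 5 with sgCbfb, 6, 6 and 5 with sgCTCF and 6, 8 and 13 with sgMed12. The sgControl and sgCbfb groups overlapped in both experiments, in LP 1.28 ± 2.23 against 3.32 ± 1.45 CPM in experiment 1 and 1.27 ± 1.10 against 3.56 ± 2.21 CPM in experiment 2. The log2 changes were 1.30 ± 0.60 (adjusted P = 0.4) and 1.03 ± 0.43 (adjusted P = 0.14).

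*Gata1*, on chromosome X (7959260 to 7978071, reverse strand), was read at no more than 3.24 CPM, or 8 reads, in any library. With sgControl and sgCbfb it had 0.428 ± 0.741 and 1.43 ± 1.43 CPM in LPs of experiment 1, and 1.67 ± 1.48 and 1.49 ± 1.52 CPM in Phase 1. In LPs of experiment 2 it had 0.257 ± 0.264 CPM with sgControl, 0.724 ± 0.305 with sgCbfb, 0.617 ± 0.628 with sgCTCF and 1.42 ± 1.02 with sgMed12. The spread within groups was large beside the means, and the groups overlapped in both experiments. With all libraries, its smallest adjusted P value in the 11 comparisons was 0.2, for sgMed12 (log2 change 0.86 ± 0.41). When sgMed12 replicate 2 (0.29 CPM, beside 1.695 and 2.27) was left out, the log2 change was 1.26 (adjusted P = 0.033, limma). *Gata1* was still not called there, since its level was below the level that a call needs.

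*Gata2*, on chromosome 6 (88193891 to 88207032, forward strand), was read in no more than 5 libraries, and all of them were LPs with sgCbfb. These had 1, 2 and 0 reads in experiment 1 and 3, 6 and 6 in experiment 2, while the other 18 libraries, Phase 1 cells with sgCbfb among them, had 0. The pooled level of the 3 sgCbfb libraries of experiment 2 was 1.36 CPM (15 reads). It was 5.1-fold the level that 3 reads would give over the sgControl group, 5.26-fold for sgCTCF and 4.74-fold for sgMed12. These ratios leave out the counting error of the 15 reads and the spread between libraries, so they are not lower bounds. *Gata2* did not pass the filter and was not among the tested genes. Fitted without the filter, its sgCbfb effect in experiment 2 had an adjusted P value of 7.5e-05 with limma and 0.074 with edgeR, and in experiment 1 of 0.4 and 0.79. No library of any group reached 2 CPM.

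*Klf1*, on chromosome 8 (84901928 to 84905291, forward strand), had at most 2 reads in a library, with 3 reads over the 6 LP libraries with sgCbfb and 9 over the other 18. At this depth no difference in it was detectable. *Pf4*, on chromosome 5 (90772435 to 90773383, forward strand), had 0 reads in all 24 libraries, at the same depth at which *Zfpm1* was read in each.

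**Figure D3:**
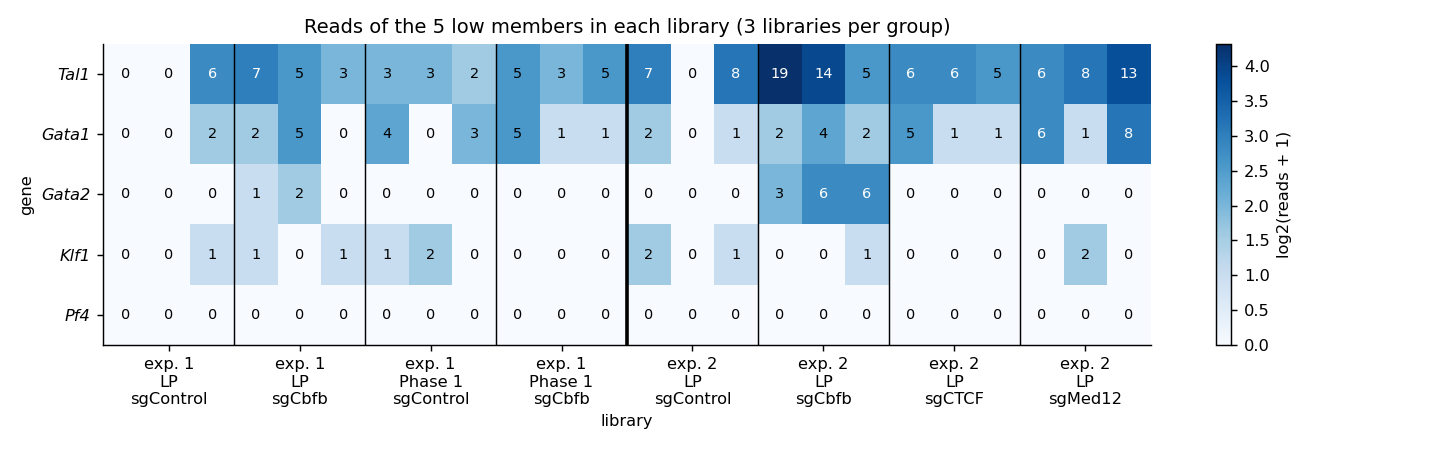
Reads of *Tal1*, *Gata1*, *Gata2*, *Klf1* and *Pf4* (rows) in each of the 24 libraries (columns, 3 per group in replicate order), written in each cell and shaded by log2(reads + 1). *Gata2* has its 18 reads in the sgCbfb LP groups of the 2 experiments, and *Pf4* has none.

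The promoters of *Zfpm1* and *Gfi1b*, which were called in different comparisons, are shown for the letters they hold. RefSeq windows on GRCm38.p6, from 250 bases before to 50 after the start of a transcript, were matched for 7 of the 8 genes (not *Nfe2*), with 9 windows. The capital letter standing alone is the start base, and 6 capitals in a row are a match to the GATA letters AGATAA or TGATAA. Both windows read 5′ to 3′ on the strand of the gene, at chr8:122281891-122282190 (forward) and chr2:28621933-28622232 (reverse).
Zfpm1: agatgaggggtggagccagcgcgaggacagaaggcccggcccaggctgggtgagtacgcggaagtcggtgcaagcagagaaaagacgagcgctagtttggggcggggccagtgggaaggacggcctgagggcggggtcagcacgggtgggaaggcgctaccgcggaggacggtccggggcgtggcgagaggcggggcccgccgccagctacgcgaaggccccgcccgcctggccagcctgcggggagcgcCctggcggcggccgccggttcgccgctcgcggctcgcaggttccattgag
Gfi1b: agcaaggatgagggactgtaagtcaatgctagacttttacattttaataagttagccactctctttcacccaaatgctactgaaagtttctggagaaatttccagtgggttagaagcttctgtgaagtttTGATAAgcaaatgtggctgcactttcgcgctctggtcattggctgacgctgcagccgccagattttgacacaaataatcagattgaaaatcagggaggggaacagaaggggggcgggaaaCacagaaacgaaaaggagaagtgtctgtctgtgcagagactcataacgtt

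On either strand, the *Gfi1b* window holds TGATAA from base -120 of the start, and the *Zfpm1* window holds neither GATA form. The RUNX letters TGTGGT or TGCGGT are in neither of them, and among the 9 windows are found in that of *Klf1*. Of all 32851 promoter windows, 22.4% hold the RUNX letters and 18.6% the GATA letters. The first *Tal1* window, *Pf4* and *Klf1* also hold GATA letters, while the second *Tal1* window, both *Gata2* windows and *Gata1* hold none.

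Other transcription factors that work with these regulators were followed as a list of 30 genes, all of which were tested. With sgCbfb in LP, 3 were called higher and 1 lower in experiment 1 and 4 higher and 2 lower in experiment 2, with a median log2 change of 0.03 and 0.08 over the list and 0.00 and -0.01 over all tested genes. All tested genes were called higher and lower in 1.10% and 0.597% of cases in experiment 1, and in 2.67% and 1.65% in experiment 2. *Erg*, an ETS factor of stem cells and megakaryocytes, rose from 20.3 ± 8.82 to 89.4 ± 20.1 CPM in experiment 1 and from 13.1 ± 3.13 to 58.7 ± 9.45 CPM in experiment 2 (adjusted P = 0.00013 and 2.6e-06). *Lmo2*, the bridge between TAL1 and GATA factors, had 11.4 to 15.9 CPM with sgControl, 26.3 to 33.1 with sgCbfb, 8.86 to 11.6 with sgCTCF and 9.65 to 14.8 with sgMed12 in experiment 2, with no overlap of sgCbfb and the others. It rose 2.20-fold with sgCbfb there (adjusted P = 0.001) and 4.67-fold in Phase 1 (adjusted P = 0.01), from 3.32 ± 3.35 to 15.5 ± 3.27 CPM. In LPs of experiment 1 it was 1.68-fold higher with sgCbfb and not called (adjusted P = 0.66, limma). *Mafk*, a small Maf partner of NFE2, fell 2.20-fold with sgCbfb in experiment 2 (adjusted P = 0.00012), where *Nfe2* rose.

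In Phase 1, 3 of the 30 were called higher with sgCbfb and none lower, beside 1.96% and 1.56% of all tested genes. In the interaction 1 was called higher and 2 lower, beside 0.589% and 0.597%. From LP to Phase 1, limma called 0 of the 30 with sgControl, beside 1.65% of all tested genes called higher and 1.74% lower by limma. At an unadjusted P value under 0.05 there were 13 (6 higher and 7 lower), and edgeR called 1. With sgCbfb, 2 were called higher and none lower, beside 0.740% and 0.453%. With sgCTCF and with sgMed12, limma and edgeR called 0 of 30 against sgControl. Of all tested genes, limma called 1.81% higher and 0.622% lower with sgCTCF, and 0.668% and 0.364% with sgMed12. At an unadjusted P value under 0.05 there were 7 with sgCTCF (3 higher and 4 lower) and 9 with sgMed12 (1 higher and 8 lower). The share of all tested genes at that threshold is not given, so these counts have no background beside them. *Erg* was 7.94-fold lower with sgCTCF and 3.02-fold lower with sgMed12 than with sgCbfb (adjusted P = 7.5e-09 and 0.00017).

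The erythroid effector genes were mostly not read. Of 28, 9 had no read in the 24 libraries, *Alas2* (the red cell enzyme of heme synthesis) among them, and 20 had 10 or fewer. In each experiment 4 passed the filter. *Hbb-bt*, an adult β-globin gene, was among them, with 132 ± 23.97 CPM in sgControl LPs, 567 ± 28.3 in sgCbfb LPs, 1566 ± 18.2 in sgControl Phase 1 cells and 2526 ± 110 in sgCbfb Phase 1 cells. In LPs of experiment 2 it was at 135 ± 8.05 CPM with sgControl, 863 ± 81.9 with sgCbfb, 75.3 ± 16.3 with sgCTCF and 124 ± 26.4 with sgMed12. It rose with sgCbfb in LP of both experiments, 4.30-fold and 6.41-fold (adjusted P = 6.3e-11 and 5.1e-13), and from LP to Phase 1 with sgControl and with sgCbfb, 11.9-fold and 4.46-fold (adjusted P = 4e-15 and 3.1e-11). With sgCbfb in LP it was the 1 of 4 tested genes called higher in each experiment, with none lower. Of all tested genes, 1.10% were called higher and 0.597% lower in experiment 1, and 2.67% and 1.65% in experiment 2. From LP to Phase 1 with sgCbfb it was again the 1 of 4 called higher, with none lower, beside 0.740% and 0.453%. The near-identical *Hbb-bs* had 5 reads in all 24 libraries, and since reads of such copies can be assigned to either, the split between them is uncertain. The α-globin genes *Hba-a1* and *Hba-a2* had 2 reads and 1 read.

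*Hemgn*, a nuclear protein of red cell precursors, had 4.50 to 12.4 CPM with sgControl and 0 to 0.713 CPM with sgCbfb in LPs of experiment 1. In experiment 2 it had 7.79 to 10.5 CPM with sgControl, 0.251 to 1.07 with sgCbfb, 12.6 to 21.2 with sgCTCF and 10.8 to 11.4 with sgMed12. The sgCbfb libraries were the lowest in both, without overlap, with adjusted P = 0.012 and 2.9e-07, but since neither mean was over 10 CPM the change was not called. In Phase 1, *Hemgn* fell 9.02-fold with sgCbfb, from 38.4 ± 14.1 to 4.26 ± 3.60 CPM (adjusted P = 0.0015), and from LP to Phase 1 it rose 4.62-fold with sgControl (adjusted P = 0.034). *Hemgn* was the 1 of 4 tested genes called lower with sgCbfb in Phase 1, with none higher. Of all tested genes, 1.56% were called lower and 1.96% higher there. On Notch stimulation of sgControl cells, *Hemgn* and *Hbb-bt* were the 2 of 4 called higher, with none lower. Of all tested genes, 1.65% were called higher and 1.74% lower in that comparison.

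Heme synthesis and iron uptake genes were all read. Of 16, *Steap3*, an iron reductase, was called lower with sgCbfb in experiment 2 (2.56-fold, adjusted P = 9e-06), beside 1.65% of all tested genes. None was called with sgCbfb in either stage of experiment 1. There 3 in each stage had an unadjusted P value under 0.05 and edgeR called 0. Of all tested genes in that experiment, limma called 1.10% higher and 0.597% lower in LP, and 1.96% and 1.56% in Phase 1.

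Of 24 megakaryocyte and platelet effector genes, 6 had no read, *Ppbp* and *Gp6* among them, and 14 had 10 reads or fewer. In the sgCbfb LPs of experiment 1, 1 of the 10 tested (*Plek*) was called higher and none lower, beside 1.10% and 0.597% of all tested genes. In those of experiment 2, 2 of the 8 tested were called higher and 1 lower, beside 2.67% and 1.65%. *P2ry12*, an ADP receptor of platelets and also of microglia, rose from 1.48 ± 0.623 to 17.7 ± 5.58 CPM (adjusted P = 1.6e-06), and *Plek*, a protein kinase C substrate of platelets and leukocytes, rose 2.19-fold (adjusted P = 0.00034). *Itgb3*, the β3 integrin, fell 2.54-fold, from 13.8 ± 2.83 to 5.44 ± 2.10 CPM (adjusted P = 0.0015). In Phase 1, 3 of the 10 were called higher with sgCbfb and 1 lower, beside 1.96% and 1.56% of all tested genes. *P2ry12* rose there from 0.215 ± 0.372 to 13.5 ± 6.22 CPM (adjusted P = 0.00015), *Plek* 2.51-fold (adjusted P = 0.00079) and *Cd9*, a tetraspanin of platelets and other cells, 5.28-fold (adjusted P = 0.025), while *Itgb3* fell 2.79-fold (adjusted P = 0.042). *Cd9* was also called in the interaction, at 3.53 ± 0.86 on the log2 scale (adjusted P = 0.042). *Mrc1*, 1 of the macrophage genes, rose beside *P2ry12* and *Plek* in the LPs of experiment 2. It had 6.23 ± 2.38 CPM with sgControl and 472 ± 32.2 with sgCbfb there. Its part in the values of *P2ry12* and *Plek* was not tested.

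**Figure D4:**
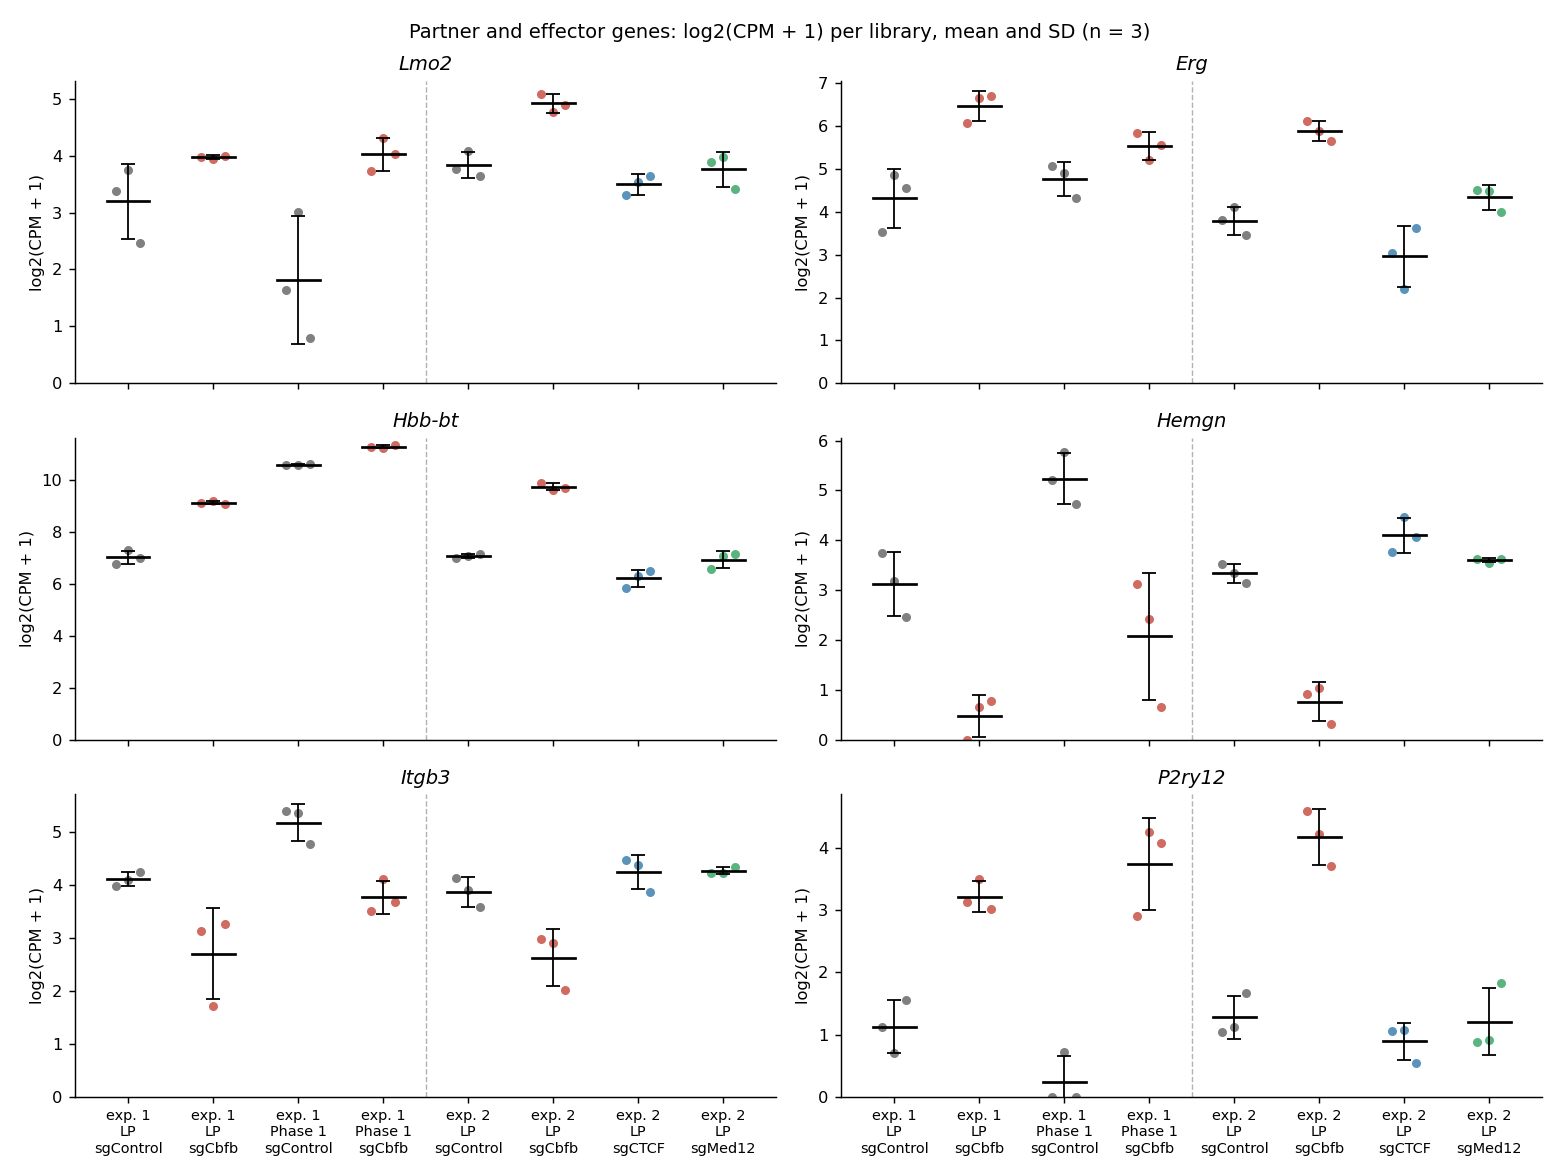
Levels of *Lmo2*, *Erg*, *Hbb-bt*, *Hemgn*, *Itgb3* and *P2ry12* as log2(CPM + 1) per library (vertical axis from 0) in the 8 groups (horizontal axis), with lines for means and bars for the SD of 3 libraries. In LPs, *Hbb-bt*, *Erg* and *P2ry12* are higher and *Hemgn* and *Itgb3* lower in sgCbfb than in sgControl libraries of both experiments.

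The genes most like each member were ranked by the lower of Pearson's r on log2(CPM + 1) over the 12 libraries of each experiment, among 8622 genes. *Zfpm1* and *Nfe2* followed each other with r = 0.81 in experiment 1 and 0.83 in experiment 2. The genes most like *Zfpm1* were *Parp9* (0.85 and 0.90) and *Ifitm2* (0.87 and 0.83), and those most like *Nfe2* were *Ifitm2* (0.84 and 0.92) and *Trim30a* (0.89 and 0.84). *Gfi1b* was most like *Ctr9* (0.78 and 0.79) and *BC004004* (0.77 and 0.72). For *Tal1* they were *Egr1* (0.73 and 0.73) and *Rab23* (0.70 and 0.76), and for *Gata1*, at a few reads, *Ppil4* (0.68 and 0.71) and *Ccdc66* (0.62 and 0.60). These are descriptions over libraries that share their groups, depth and scaling, and carry no test.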

How the data were processed

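QuantSeq 3′ mRNA libraries of 24 samples were analysed, with groups and replicate numbers from the sample labels. Per the labels and the study's methods, the authors used fastp for trimming and STAR for mapping (mm10), then normalized for library size. The deposited values are named TPM, but the low values are whole multiples of 1 step per library, so they are CPM, which are not divided by gene length. Whole reads were recovered for 100.0% of them (tolerance 0.1), and 1 row without a gene identifier was left out of each file. The counter and its strand setting are not given in the sources used here.

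Tested genes reached 1 CPM in 3 or more libraries. They were fitted with limma 3.58.1 (R 4.3.3) on log2(CPM + 1), with 4 groups in a fit and a variance trend, and Benjamini-Hochberg adjustment over all tested genes. Calls needed an adjusted P value under 0.05, a log2 ratio of means over 1 in size and a level above 10 CPM in at least 1 group compared, which follows the study's thresholds. For interactions the ratio was not used. Shares of all tested genes are those called by limma in this way. No such share is given for unadjusted P values or for edgeR calls. Fold changes on log2(CPM + 1) understate those of low genes. edgeR 4.0.16 on recovered reads was an alternative. The limma and edgeR fits were tried on simulated data for the sgCbfb effect in LPs of each experiment. The other comparisons and settings were not tried in this way. Positions come from GENCODE M21 on GRCm38.

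All 8 members are named, with at most 3 called genes per list and comparison, the 2 genes most like each member and the targeted genes. *Hemgn* in LP, *Hbb-bs*, *Hba-a1*, *Hba-a2*, and genes named for having no read, were named after their values were seen. The members and gene lists were chosen with earlier results of these data known. The replicates are, per the study, biologically independent, and 3 libraries against 3 cannot reach P = 0.05 in an exact permutation test. Replicate pairs of a group differed beyond sampling noise (chi-square per degree of freedom of 2.51 to 24.1).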

Additional observations from a re-analysis of the deposited data

Results flagged for a closer look

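The sgCbfb effect differed between LP and Phase 1 cells for 2 members, by the interaction test in experiment 1 (limma with Benjamini-Hochberg adjustment). These were 2 of 5 members tested, beside 0.597% of all tested genes called lower and 0.589% higher. The difference was -1.91 ± 0.39 on the log2 scale for *Zfpm1* (adjusted P = 0.012), and -2.72 ± 0.47 for *Nfe2* (adjusted P = 0.003). The study already reports both genes as raised in LP and lowered in Phase 1 when *Cbfb* is disrupted. In both, each of 3 sgCbfb libraries was above each sgControl library in LP and below each in Phase 1. These are the libraries of the test itself, so their separation is no further support. The share of all genes separated in this way was not computed.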

How the results depend on the processing

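Over 464 values of single members under other settings, 455 kept their direction and side of the threshold, 1 lost a call, 5 gained one and 3 changed sign. With 1 library left out, 325 of 360 kept both, 7 lost a call, 5 gained one and 23 changed sign, and the cause was not tested. The number of members called moved to 2 for sgCbfb in Phase 1 with edgeR, and to 1 for sgMed12 against sgCbfb without a filter on low values. The share of all genes called under each such setting is not given. A move in these counts therefore cannot be told from a general change in calls. With the adjusted P value alone it moved to 1 for sgCTCF, 2 for sgMed12 against sgCTCF, and 3 for sgCbfb in LPs of experiment 2 and for sgMed12 against sgCbfb. With 1 library left out it ranged from 0 to 1 for sgCbfb in Phase 1, sgCTCF, and sgMed12 against sgCTCF, from 1 to 3 for sgMed12 against sgCbfb, and from 2 to 3 for sgCbfb in LPs of experiment 2.

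The values that changed sign were not called before or after. *Gata1* in Phase 1 with sgCbfb was 0.44 with a pseudocount of 0.1, and *Zfpm1* with sgCTCF was 0.007 with edgeR and 0.015 with median-of-ratios scaling. With 1 library left out, the log2 changes with sgCbfb in Phase 1 ranged from -0.66 to 0.31 for *Gata1* and -0.037 to 0.36 for *Gfi1b*. From LP to Phase 1 with sgCbfb they ranged from -0.46 to 0.52 for *Gata1*, -0.40 to 0.063 for *Tal1*, -0.33 to 0.074 for *Zfpm1*, -0.52 to 0.005 for *Nfe2* and -0.20 to 0.66 for *Gfi1b*. With sgCTCF they ranged from -0.23 to 0.55 for *Tal1*, -0.14 to 0.11 for *Zfpm1* and -0.38 to 0.094 for *Nfe2*, and with sgMed12 from -0.035 to 0.24 for *Gfi1b*. For sgCTCF against sgCbfb they ranged from -0.44 to 0.019 for *Gata1* and -0.43 to 0.27 for *Gfi1b*, and for sgMed12 against sgCbfb from -0.70 to 0.085 for *Tal1*.

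The deviations of same-numbered libraries from their group means correlated at -0.03 to 0.19 in experiment 1 and -0.13 to 0.25 in experiment 2. The numbers were therefore not taken to pair the samples. With the replicate block, 0 of 66 values and counts changed their side of the threshold, for example *Nfe2* with sgCbfb in LPs of experiment 1 (adjusted P = 0.0043, limma). The edgeR fit of *Gata2* and *Klf1* without a filter was chosen after seeing the data. Depth limits *Gata1*, *Gata2*, *Klf1* and *Pf4*, which had few reads or none.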
